A study of Homo sapiens with 30 samples.

Results

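Divergent transcripts are noncoding RNAs that start near the promoter of a coding gene and run away from it on the other strand. Their gene symbols end in -DT after the symbol of the coding partner. Of 61487 genes in the count table, 590 carried such a symbol, and the 87 with a mean raw count of at least 100 over the 30 libraries are described here, each beside its coding partner. They were chosen by that mean count, so their general level is a description with no test. The 3 members just inside that threshold were PRDM16-DT (101.8 counts), CEBPA-DT (101.0) and PRKACB-DT (100.1), and the 3 genes just outside were GMDS-DT (98.5), CD2BP2-DT (98.0) and ZNRD2-DT (96.2).

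Many human promoters fire in both directions. The upstream RNA is usually short-lived: early poly(A) sites end it, and the nuclear exosome with its adaptors (the NEXT complex and the PAXT connection) degrades it, whereas U1 snRNP bound at 5' splice sites shields the coding RNA from early termination. A divergent transcript that is spliced and polyadenylated can escape this decay and is then seen in poly(A)-selected RNA.

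The libraries came from eHAP FNLS, a haploid human cell line made from HAP1 and holding the cytosine base editor FNLS, and all 5 genotypes carry that editor. The control genotype held a non-targeting sgRNA and was represented by 3 replicates of 1 line. The others were PHF5A 2xTL (6 nucleotides inserted at T40-L41), SF3B1 T1080I, SUGP1 E554K and SUGP1 G603N, each as 3 independent monoclonal lines. SF3B1 and PHF5A are subunits of the SF3b complex, which recognises the branch point of introns, and SUGP1 is a splicing factor that binds SF3B1. Every genotype received the solvent DMSO or 2 nM pladienolide B (PB), an inhibitor of SF3b, for 3 h, with 3 libraries in each of the 10 groups. Spread in control is thus spread among replicates of 1 line, which may be technical, and spread in the mutants is spread among clones.

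Libraries held 31592501 to 75037259 counts, of which mitochondrial genes took 10.1% to 17.9% and the 87 members 0.0475% to 0.0609%. Of 10 haematopoietic markers, 9 lay under 1 CPM (counts scaled to library size) in every library (summed level of the 10 1.15 to 5.85 CPM). Of 6 mesenchymal markers, 2 lay under 1 CPM in every library. Their sum (209.8 to 392.7 CPM) was mostly VIM, at 193.0 to 386.0 CPM. COL1A1 reached 20.7, THY1 10.2 and COL1A2 1.29 CPM. The 6 epithelial markers summed to 21.1 to 153.6 CPM, and 3 of them lay under 1 CPM in every library. KRT8 reached 84.9 and KRT18 68.3 CPM, but EPCAM only 1.29 CPM. The 6 neural markers summed to 71.2 to 162.8 CPM, and 1 lay under 1 CPM in every library. NES reached 153.0 and MAP2 49.5 CPM, but TUBB3 only 7.61, RBFOX3 2.35 and GFAP 1.06 CPM. None of these lists was tested against the results below.

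By annotation, 61 members start within 1 kb of the partner's start and point away from it, 2 within 5 kb, 23 overlap the partner's gene, and ACAD9-DT was found without a strand. The members lie on 20 chromosomes. In GENCODE release 29, 41 are classed as antisense and 34 as lincRNA, and IRX2-DT is classed as protein coding. The largest number of exons in any annotated transcript is 1 for 15 members, 2 for 19 and at least 3 for 51. In all, 47 members overlap some other gene of the table. Whether the counting used strand is not stated in the labels or notes used here, and reads of overlapping genes therefore cannot be told apart.

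RefSeq promoter windows (GRCh38.p14, 250 bases before to 50 after a start) were matched by symbol for 67 of the 87 members, giving 75 windows. Their median GC content was 69.0%, against 66.8% in 100 windows of the partners and 58.7% in all 35116 windows, and the median ratio of observed to expected CpG was 0.895, 0.872 and 0.579. The GC box GGGCGG, a binding motif of SP1, occurred on either strand in 77.3% of member windows and 45.0% of all windows. The ETS motif CCGGAAG occurred in 25.3% and 10.3%, the CCAAT box (CCAAT) in 38.7% and 34.6% and the TATA box TATAAA in 4.0% and 11.5%. Copies of the GC box may overlap each other. The poly(A) signal AATAAA or ATTAAA lay in the last 50 bases of an annotated transcript in 63 of 85 members (74.1%) and in 51.5% of 14749 noncoding genes. A gene counted if any of its annotated transcripts held the signal. The sets were not matched for number of transcripts or for level.

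The promoters of 4 members are shown because the results turn on them: TMCC1-DT and NUP50-DT had the largest decreases with PB in control, and NIPBL-DT and ZNF496-DT rose. Windows are printed 5' to 3' on the strand of the divergent transcript, and capitals mark any of the 4 motifs on either strand. TMCC1-DT is at chr3:129893621-129893920 (plus strand), NUP50-DT at chr22:45163732-45164031 (minus), NIPBL-DT at chr5:36876645-36876944 (minus) and ZNF496-DT at chr1:247331804-247332103 (plus). The nearest RefSeq start of the partner lies inside each window, at 160, 144, 75 and 187 bases from the start of the divergent transcript.
TMCC1-DT: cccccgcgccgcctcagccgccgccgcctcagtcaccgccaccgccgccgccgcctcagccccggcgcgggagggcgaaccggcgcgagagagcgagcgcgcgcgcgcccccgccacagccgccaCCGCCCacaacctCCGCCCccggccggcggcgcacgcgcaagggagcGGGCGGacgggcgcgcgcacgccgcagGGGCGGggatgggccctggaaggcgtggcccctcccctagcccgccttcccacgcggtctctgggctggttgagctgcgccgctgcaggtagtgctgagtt
NUP50-DT: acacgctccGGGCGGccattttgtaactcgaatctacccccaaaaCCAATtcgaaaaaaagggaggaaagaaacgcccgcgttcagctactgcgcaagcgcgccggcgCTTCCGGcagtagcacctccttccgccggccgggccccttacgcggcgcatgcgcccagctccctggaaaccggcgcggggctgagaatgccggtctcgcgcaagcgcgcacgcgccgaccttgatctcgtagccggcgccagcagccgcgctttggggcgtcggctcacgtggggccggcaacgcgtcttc
NIPBL-DT: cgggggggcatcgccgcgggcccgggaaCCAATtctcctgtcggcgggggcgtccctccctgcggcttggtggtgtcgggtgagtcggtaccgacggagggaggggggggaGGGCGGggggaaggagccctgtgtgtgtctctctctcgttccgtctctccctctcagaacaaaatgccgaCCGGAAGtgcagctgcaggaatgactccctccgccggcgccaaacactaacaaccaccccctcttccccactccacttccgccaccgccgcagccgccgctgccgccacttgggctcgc
ZNF496-DT: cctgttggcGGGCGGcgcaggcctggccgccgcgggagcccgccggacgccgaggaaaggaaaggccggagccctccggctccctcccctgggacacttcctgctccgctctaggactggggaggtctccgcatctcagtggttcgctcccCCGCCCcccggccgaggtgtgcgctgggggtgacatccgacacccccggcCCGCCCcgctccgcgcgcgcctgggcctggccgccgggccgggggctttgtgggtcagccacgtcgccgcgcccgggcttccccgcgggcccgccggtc
All 4 windows hold the GC box. The window of NUP50-DT also holds the CCAAT and ETS motifs, as does that of NIPBL-DT, and none of the 4 holds TATAAA. A match is only a run of letters.

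All 87 members passed the filter on low counts, and none was at 0 in any library. Mean levels ran from 2.12 to 41.6 CPM with a median of 4.28. TMEM161B-DT was highest at 41.6 CPM, followed among others by GARS1-DT at 23.7, COX10-DT at 17.8, NIPBL-DT at 17.1, CTBP1-DT at 16.1, RNASEH1-DT at 15.3, ZNF496-DT at 14.9, CNN3-DT at 13 and ZNF584-DT at 11.9. Scaled to library size and to the deposited gene length (RPKM), the median level was 1.15 for members and 6.96 for partners. The partner was at least 10-fold higher in 30 of the 87 pairs and lower in 9. The ratio of partner to divergent transcript had a median of 5.15 and ranged from 0.116 for IRX2-DT to 164.0 for SRP14-DT, whose partner encodes a protein of the signal recognition particle.

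With PB in control cells, 13 members fell and 3 rose (edgeR quasi-likelihood test, Benjamini-Hochberg adjusted p under 0.05). These 16 calls are 18.4% of the members, where 4.3% of all 31495 tested genes were called (3.31% lower and 0.987% higher), 8.51% of the 13670 with a mean of at least 100 counts (7.08% lower and 1.43% higher), and 12.4% of the 807 long noncoding RNA genes above that mean. The median log2 fold change was -0.07 over the members and 0.01 over all tested genes. At an unadjusted edgeR p under 0.05 there were 26 of the 87 members and 4352 of all 31495 tested genes. This threshold was also met by 3117 of the 13670 genes with a mean of at least 100 counts. Of the 807 long noncoding RNA genes above that mean, 247 met it. The control libraries did not overlap between treatments in 39 members, of which 26 were lower with PB. Overlap was not counted over all genes, so the 39 cannot be read as a trait of the members. The share of counts from mitochondrial genes also differed between the control groups without overlap, at 10.61% to 11.26% with DMSO and 11.27% to 12.79% with PB. Its part in the control results was not tested. In bulk RNA, fewer cells with a transcript and less of it per cell cannot be told apart.

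TMCC1-DT, the neighbour of a gene for an endoplasmic reticulum membrane protein, showed the largest decrease. It stood at 6.95, 6.70 and 6.03 CPM in the control DMSO libraries and at 1.07, 1.53 and 1.43 CPM with PB. The groups did not overlap, and the level was 4.86-fold lower (log2 fold change -2.28 ± 0.27, SE; adjusted p = 4.62e-06). NUP50-DT, beside the gene of a nuclear pore protein, went from 4.80, 5.56 and 4.30 CPM to 1.88, 1.28 and 1.20 CPM. Again every PB library lay below every DMSO library (-1.75 ± 0.24, adjusted p = 3.63e-05). ZFAND2A-DT went from 4.37, 6.50 and 4.54 to 1.53, 1.81 and 1.86 CPM (-1.57 ± 0.33, adjusted p = 0.00433), and DPH5-DT from 6.64, 6.67 and 3.65 to 1.96, 2.42 and 1.95 CPM (-1.42 ± 0.28, adjusted p = 0.00255). Both of these overlap the 5' end of their partner. DPH5 acts in diphthamide synthesis, and ZFAND2A encodes a zinc finger protein induced by arsenite.

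ACAD9-DT, the neighbour of a factor that assembles respiratory complex I, fell from 7.91 ± 0.988 (SD, n = 3) to 3.08 ± 0.511 CPM. SRP14-DT fell from 5.49 ± 0.341 to 2.51 ± 0.257 CPM. RIPK2-DT, beside a kinase of NOD receptor signalling, fell from 9.01 ± 0.584 to 4.51 ± 0.266 CPM, and SLC12A2-DT, beside a sodium-potassium-chloride cotransporter gene, from 11.6 ± 0.379 to 5.87 ± 0.267 CPM. The groups did not overlap in any of these. The remaining decreases were MAP3K9-DT (log2 fold change -1.05), PCMTD1-DT (-0.94), UBA6-DT (-0.83), RAB30-DT (-0.66) and TMEM161B-DT (-0.58). The last of these is the most abundant member, at 43.5, 48.0 and 46.9 CPM with DMSO and 29.6, 33.5 and 29.4 CPM with PB.

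NIPBL-DT and ZNF496-DT, both among the most abundant members, rose in control. NIPBL-DT, next to the cohesin loader gene, rose from 16.1, 16.7 and 11.9 to 28.9, 22.2 and 25.0 CPM (log2 fold change 0.77 ± 0.20, adjusted p = 0.0188). ZNF496-DT, next to a zinc finger gene, rose from 9.95, 13.5 and 12.5 to 16.9, 19.2 and 20.6 CPM (0.66 ± 0.16, adjusted p = 0.0143). All PB libraries lay above all DMSO libraries for both. The NIPBL-DT call was lost without control DMSO replicate 3 or PB replicate 1, and the ZNF496-DT call without DMSO replicate 1 or PB replicate 2 or 3.

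**Figure D1:**
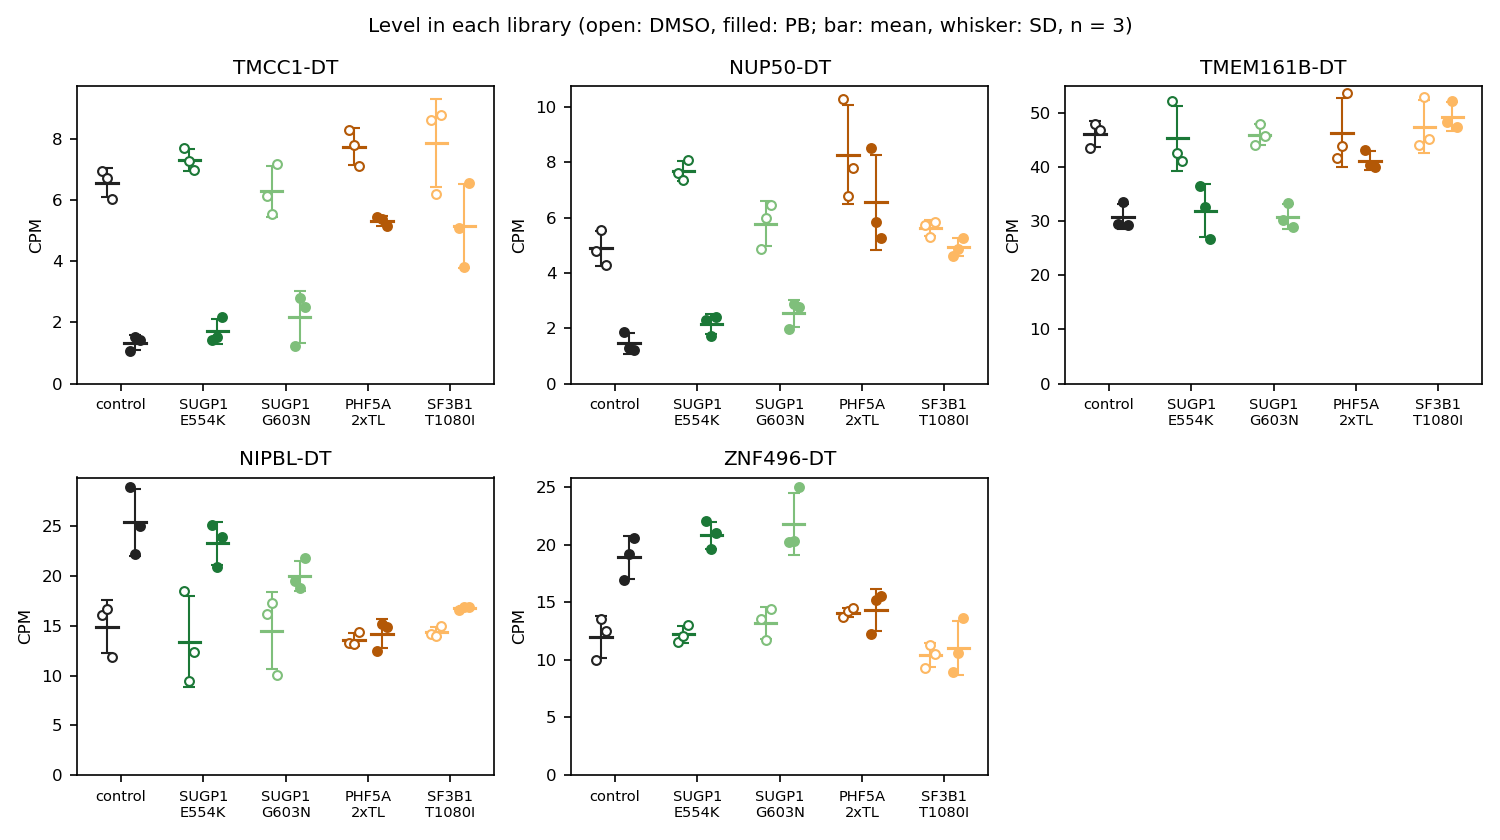
Level in CPM (vertical axis) of 5 members in each library, by genotype. Open points are DMSO and filled points PB libraries; the horizontal bar is the mean and the whisker the SD of n = 3. TMCC1-DT falls from 6.56 to 1.34 CPM in control and from 7.86 to 5.15 CPM in SF3B1 T1080I.

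Of the 16 control calls, 7 held whichever control library was left out: TMEM161B-DT, RIPK2-DT, UBA6-DT, TMCC1-DT, NUP50-DT, DPH5-DT and ZFAND2A-DT. SRP14-DT and SLC12A2-DT lost theirs whichever library was left out, and SRP14-DT also with DESeq2 size factors. ACAD9-DT, MAP3K9-DT, PCMTD1-DT and RAB30-DT lost theirs without at least 1 library of each treatment. Without the filter on low counts, ZNF496-DT, RAB30-DT and MAP3K9-DT were not called and 13 calls were left. The number of calls dropped to 9 without DMSO replicate 1 and to 10 without PB replicate 1, 2 or 3.

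In SUGP1 E554K, PB lowered 13 members and raised 3 (18.4% of the members), against 4.32% of all tested genes called (3.3% lower and 1.02% higher) and 8.6% of those with a mean of at least 100 counts (6.85% lower and 1.76% higher). TMCC1-DT stood at 7.69, 7.26 and 6.98 CPM with DMSO and 1.42, 1.53 and 2.18 CPM with PB (log2 fold change -2.11 ± 0.26, adjusted p = 1.34e-05). NUP50-DT went from 7.62, 7.35 and 8.08 to 2.30, 1.73 and 2.40 CPM (-1.84 ± 0.24, adjusted p = 1.82e-05). Neither pair of groups overlapped. ATP6V0D1-DT, beside a gene of the vacuolar proton pump, fell from 3.55 ± 1.01 to 1.36 ± 0.107 CPM, and ARNT2-DT, beside a bHLH-PAS transcription factor gene, from 8.52 ± 1.4 to 3.64 ± 0.255 CPM. ARNT2-DT, ATP6V0D1-DT, LRFN5-DT (-1.12) and GARS1-DT (-0.69) were called here and not in control. NIPBL-DT and ZNF496-DT rose again, by 0.79 and 0.77.

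In SUGP1 G603N, PB lowered 15 members and raised 2, ZNF496-DT (0.72) among them, against 4.08% of all tested genes called (2.99% lower and 1.09% higher) and 7.43% of those with a mean of at least 100 counts (6.14% lower and 1.28% higher). NIPBL-DT was not called in SUGP1 G603N, at 14.5 ± 3.87 CPM with DMSO and 20 ± 1.55 CPM with PB. TMCC1-DT went from 6.12, 5.53 and 7.18 to 1.22, 2.80 and 2.50 CPM (log2 fold change -1.53 ± 0.26, adjusted p = 5.38e-04). SRP14-DT fell from 7.94 ± 1.91 to 2.91 ± 1.42 CPM and ACAD9-DT from 10.6 ± 1.71 to 3.77 ± 0.225 CPM. RNF139-DT, beside a ubiquitin ligase gene, was also called, at -1.01 ± 0.27 (adjusted p = 0.0304), and was at -0.75 in SUGP1 E554K (adjusted p = 0.122). The difference in response from control was called for 0 members in SUGP1 E554K and SUGP1 G603N by edgeR, where 0% of all genes passed, and for 0 with DESeq2. The added or missing calls are therefore not shown to be differences between genotypes. At an unadjusted edgeR p under 0.05 the response differed in 5 and 4 members, and in 642 and 873 of all 31495 tested genes.

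The comparisons within control, SUGP1 E554K and SUGP1 G603N have no library in common. The spread of each gene was, however, estimated over all 30 libraries together, so the 3 sets of calls are not independent. Shared calls were not counted over all genes, so their number cannot be read as a trait of the members. The control and SUGP1 E554K lists shared 12 calls (75% of each list), the control and SUGP1 G603N lists 13 (81.2% and 76.5%), and those of both SUGP1 genotypes 13 (81.2% and 76.5%), every shared call in the same direction. In all, 21 members were called at least once and 10 in all 3 genotypes. Of the 10, 8 fell, namely ACAD9-DT, NUP50-DT, PCMTD1-DT, RAB30-DT, SRP14-DT, TMCC1-DT, TMEM161B-DT and ZFAND2A-DT, and 2 rose, ZNF496-DT among them. NIPBL-DT is not one of the 10.

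Leaving out each library of a genotype in turn, 5 of the 16 calls held throughout in SUGP1 E554K (ZNF496-DT, ARNT2-DT, TMCC1-DT, NUP50-DT and ATP6V0D1-DT) and 5 of the 17 in SUGP1 G603N (GARS1-DT, RAB30-DT, ARNT2-DT, TMCC1-DT and NUP50-DT). Of the 10 members called in all 3 genotypes, only TMCC1-DT and NUP50-DT held in every such fit of control and both SUGP1 genotypes. ACAD9-DT in SUGP1 E554K went from -1.44 to -0.78 without DMSO replicate 1 and was not called there. Fitted on the libraries of 1 genotype alone, SUGP1 E554K had 2 calls (TMCC1-DT and NUP50-DT) and SUGP1 G603N 0. The same fit with the replicate number, which marks the clone, as a block had 19 and 7. The number fell to 8 in SUGP1 E554K without DMSO replicate 1 and 10 without PB replicate 3, and in SUGP1 G603N to 10, 11 and 9 without DMSO replicate 1, PB replicate 1 and PB replicate 2.

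In PHF5A 2xTL and in SF3B1 T1080I no member was called with PB, where 0.00318% of all genes (1 gene) was called in each. At an unadjusted edgeR p under 0.05 there were 2 and 1 members, and 407 and 278 of all 31495 tested genes. DESeq2 also called 0 members in both. TMCC1-DT had the lowest p in each. It stood at 8.30, 7.79 and 7.12 CPM with DMSO and 5.44, 5.39 and 5.14 CPM with PB in PHF5A 2xTL (-0.54), and at 8.60, 6.19 and 8.78 against 5.08, 3.81 and 6.55 CPM in SF3B1 T1080I (-0.61). The groups separate in PHF5A 2xTL and overlap in SF3B1 T1080I, where each of the 3 clones was nevertheless lower with PB than with DMSO. Fitted on the SF3B1 T1080I libraries alone with the clone as a block, TMCC1-DT was the 1 member called there, and it was lower with PB. PCMTD1-DT (-0.47) and CENATAC-DT (-0.53) came next in PHF5A 2xTL, and ARNT2-DT (-0.49) in SF3B1 T1080I.

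**Figure D2:**
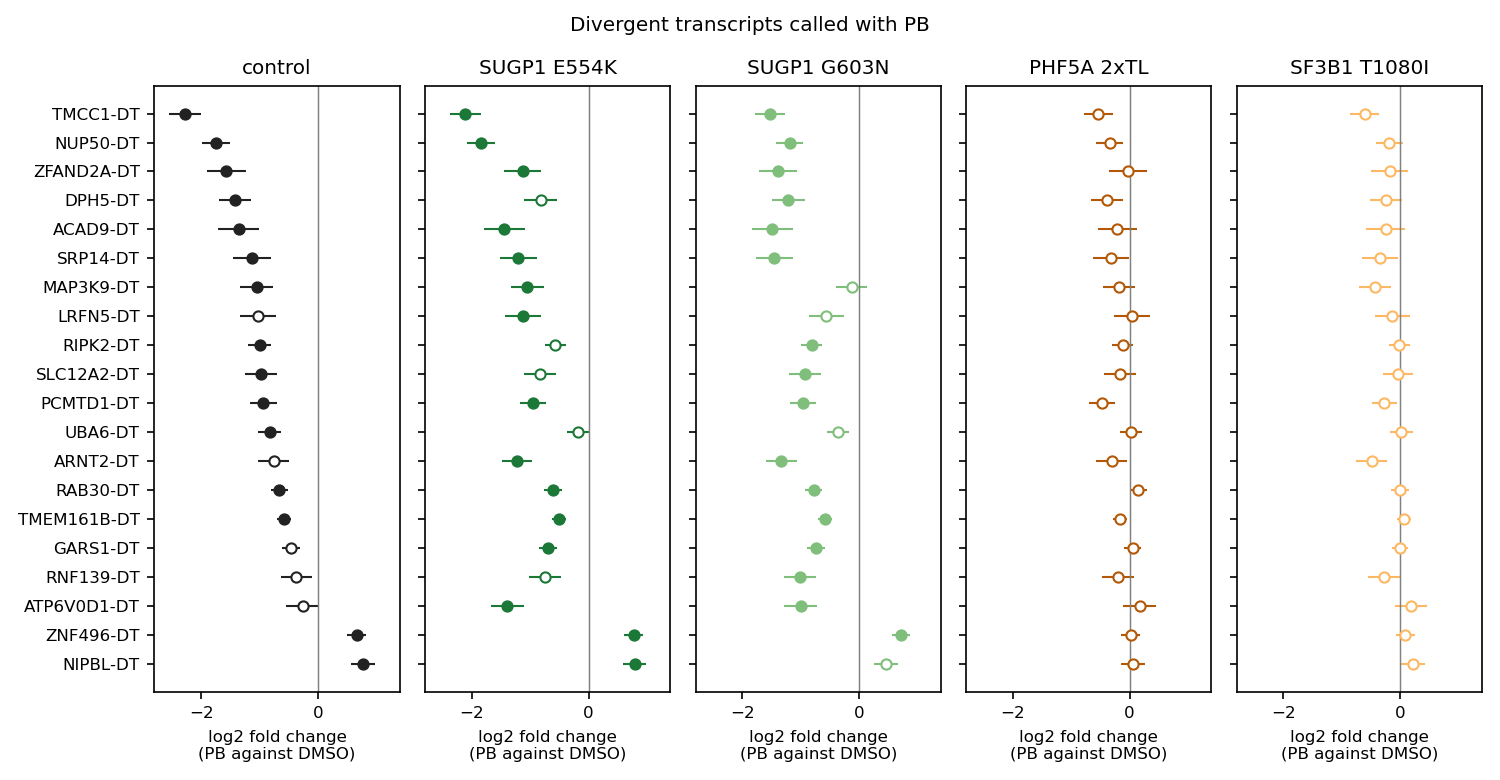
Log2 fold change of PB against DMSO (horizontal axis) with its SE for 20 of the 21 members called in at least 1 genotype, 1 panel per genotype, ordered by the control value. Filled points passed an adjusted p of 0.05; no point is filled for PHF5A 2xTL or SF3B1 T1080I.

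The difference in response itself was tested against control. TMCC1-DT differed in PHF5A 2xTL by 1.74 ± 0.36 on the log2 scale (adjusted p = 0.029; 0.26% of all genes called) and in SF3B1 T1080I by 1.67 ± 0.36 (adjusted p = 0.0341; 0.286% of all genes called). NUP50-DT differed in SF3B1 T1080I by 1.56 ± 0.33 (adjusted p = 0.0266), where it stood at 5.73, 5.31 and 5.85 CPM with DMSO and 4.63, 4.88 and 5.28 CPM with PB. These 3 calls rest on narrow margins: without the filter on low counts none passed, and with 1 library left out at a time the adjusted p of TMCC1-DT passed in 1 of 12 fits in each genotype and that of NUP50-DT in 2 of 12. With the replicate number as a block, 494 and 525 of all 31495 tested genes were called in PHF5A 2xTL and SF3B1 T1080I. There were 5 member calls in each genotype. In PHF5A 2xTL they were TMCC1-DT (adjusted p = 0.00362), NUP50-DT (0.00888), ZFAND2A-DT (0.0283), RAB30-DT (0.0332) and ACAD9-DT (0.0438). In SF3B1 T1080I they were NUP50-DT (0.00324), TMCC1-DT (0.0054), TMEM161B-DT (0.014), RIPK2-DT (0.0413) and ACAD9-DT (0.0454). Both tests use the same control libraries.

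NUP50-DT in PHF5A 2xTL touches a line that stood apart. Line 1 had 10.3 CPM with DMSO and 8.51 with PB, the other two lines 6.79 and 7.78 with DMSO and 5.86 and 5.28 with PB. NUP50 itself was at 416.0 CPM with DMSO in line 1 against 233.2 and 240.0 in the others. NDUFA6-DT, TBC1D22A-DT and CHKB-DT, further members on the long arm of chromosome 22, were also highest in line 1 under DMSO, at 6.08, 7.96 and 12 CPM. TFIP11-DT, closer to the centromere of that chromosome, was not (2.88 CPM in line 1, 3.02 and 3.04 in the others). The part of this in the NUP50-DT response was not tested.

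Without drug, no member was called in any mutant against control, where 3, 0, 0 and 2 genes of all tested were called in PHF5A 2xTL, SF3B1 T1080I, SUGP1 E554K and SUGP1 G603N (0.00953%, 0%, 0% and 0.00635%). At an unadjusted p under 0.05 edgeR had 8, 5, 4 and 5 members, and 1412, 1139, 1214 and 1648 of all 31495 tested genes. DESeq2 called 0 members in each. SRP14-DT had the lowest p in SF3B1 T1080I, at 13.5, 11.3 and 10.7 CPM against 5.89, 5.28 and 5.32 in control; the groups did not overlap, yet the call failed the adjustment (log2 fold change 1.1, adjusted p = 0.552). ARNT2-DT in PHF5A 2xTL was at 3.24, 2.94 and 3.59 CPM against 6.05, 6.24 and 6.62 (-0.96, adjusted p = 0.667). NUP50-DT (0.65) led in SUGP1 E554K and ZMPSTE24-DT (0.78) in SUGP1 G603N, neither called.

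A few members differed widely between clones of 1 genotype. ISL1-DT, beside a LIM homeobox gene, was at 10.5, 3.28 and 0.153 CPM in the SUGP1 E554K lines with DMSO and 2.79, 1.48 and 0.0974 with PB. In SUGP1 G603N it was at 7.16, 8.02 and 1.05 CPM with DMSO and 2.68, 3.51 and 0.673 with PB. The third line was lowest in both genotypes and both treatments. ISL1 was also lowest in the third SUGP1 E554K line, at 0.817 CPM with DMSO. IRX2-DT, beside an Iroquois homeobox gene, was highest in the third SF3B1 T1080I line, at 18.1 CPM with DMSO and 19.2 with PB against 5.69 to 8.91 in the other two, and IRX2 was highest there too (3.75 and 3.81 CPM). TNFRSF10A-DT was lowest in that line, at 2.22 CPM under both treatments against 5.23 to 6.87 in the other lines. In control TNFRSF10A-DT averaged 2.85 CPM with DMSO and 2.24 CPM with PB, nearer to the third line than to the others. Without the third line of both SUGP1 genotypes, chosen after the values were seen, PB called 14 and 17 members in SUGP1 E554K and SUGP1 G603N. Calls over all genes in that fit are not given here. The third SUGP1 E554K line also had the largest mitochondrial shares of its groups, 15.02% with DMSO and 17.87% with PB, and its PB library was the shallowest of all; the other SUGP1 E554K libraries were at 10.15% to 14.29%.

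Of the 87 coding partners, 4 fell and 0 rose in control (MAP4K3, EMSY, ZNF691 and SP2), 3 fell and 4 rose in SUGP1 E554K, and 3 fell and 3 rose in SUGP1 G603N. These are 4.6%, 8.05% and 6.9% of the partners, where 6.65%, 6.68% and 5.85% of the 16240 coding genes tested were called. Those coding genes were not matched to the partners for level. Among tested genes of any type with a mean of at least 100 counts, 8.51%, 8.6% and 7.43% were called. No divergent transcript of those 4 control partners was called. Across the 87 pairs, Pearson's r between the change of the divergent transcript and that of its partner was 0.0837 in control, -0.0177 in SUGP1 E554K and 0.0658 in SUGP1 G603N. Both values of a pair come from the same libraries, and the r is a description.

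The change in the ratio of divergent transcript to partner was tested with limma over 2457 gene pairs. These were all pairs of tested genes on opposite strands that start within 5 kb and point apart, together with the member pairs. The 23 members that overlap the partner's gene, and ACAD9-DT, do not have that layout and entered by symbol. The other pairs were not chosen by level, and the share of pairs called at the members' level was not counted. In control, 15 of the 87 member pairs were called, 11 with the divergent transcript falling relative to its partner and 4 rising, where 5.98% of all pairs were called. SUGP1 E554K had 19 (13 and 6; 7.98% of all pairs) and SUGP1 G603N 14 (11 and 3; 6.35%). PHF5A 2xTL and SF3B1 T1080I had 0, where 0% and 0.0407% of all pairs were called. At an unadjusted limma p under 0.05 there were 1 and 2 member pairs, a count not made over all pairs. The largest differences in control were NUP50-DT at -1.89 ± 0.30 (adjusted p = 1.50e-04), TMCC1-DT at -1.87 ± 0.34 (adjusted p = 5.39e-04) and ZFAND2A-DT at -1.72 ± 0.43 (adjusted p = 0.0116). NUP50 was at 224.6 ± 17.6 CPM with DMSO and 241.8 ± 6.34 with PB, so its means differed by less than the SD of the DMSO libraries. ZNF778-DT (1.04) and ZNF567-DT (-1.22) passed the pair test in control without a call of their own.

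TMEM161B-DT and its partner went in opposite directions. TMEM161B rose in SUGP1 E554K from 22.3, 20.9 and 12.1 to 34.8, 33.0 and 21.8 CPM (0.70 on the log2 scale, adjusted p = 0.0276) and also in SUGP1 G603N from 22.0, 17.1 and 13.8 to 30.1, 26.6 and 33.2 CPM (0.76, adjusted p = 0.017), while TMEM161B-DT fell by 0.50 and 0.58. In control TMEM161B was at 0.41 (adjusted p = 0.298). The difference within the pair was -1.0, -1.27 and -1.34 in control, SUGP1 E554K and SUGP1 G603N. The 2 genes overlap at their 5' ends. ACAD9 also rose in SUGP1 G603N (0.47, adjusted p = 0.0214) where ACAD9-DT fell. TMCC1 was the 1 partner called in the same direction as its divergent transcript, in SUGP1 G603N (-0.63, adjusted p = 0.0144).

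**Figure D3:**
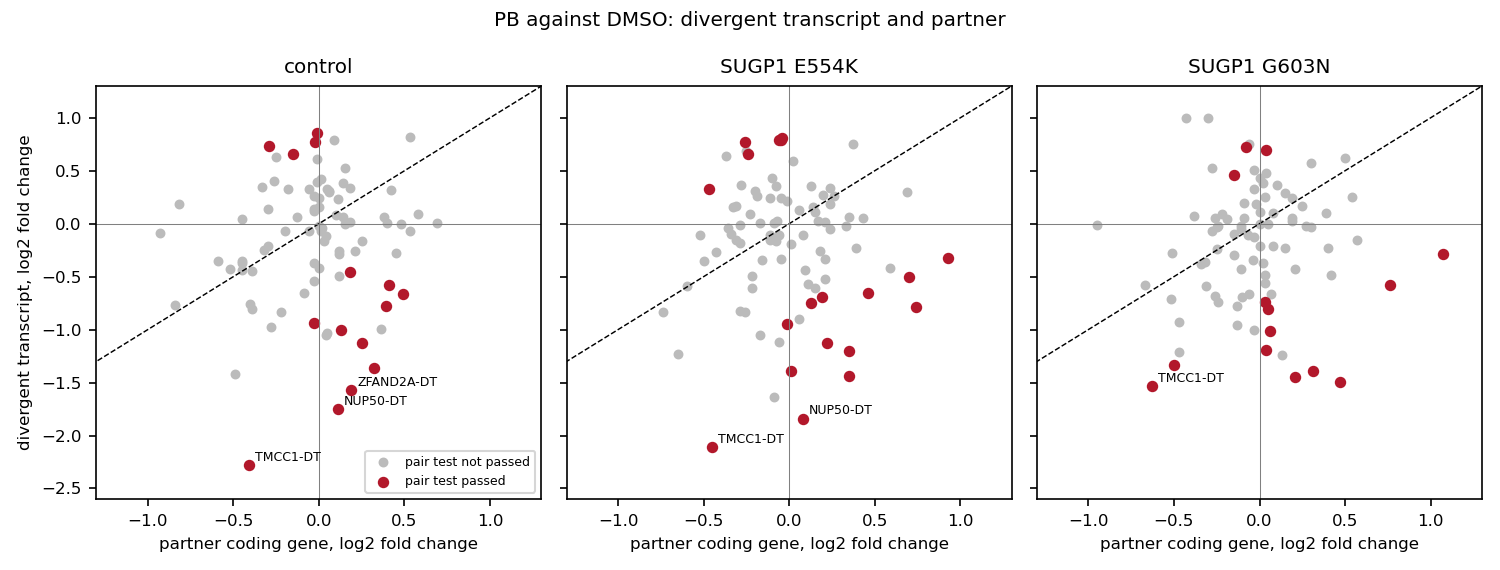
Log2 fold change with PB of the divergent transcript (vertical axis) against that of its coding partner (horizontal axis) for 87 pairs in 3 genotypes; the dashed line marks equal change. Red points passed the pair test (15, 19 and 14 pairs), most of them below the line.

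In control, SUGP1 E554K and SUGP1 G603N the median response was lower in members with more annotated exons, while in PHF5A 2xTL and SF3B1 T1080I the medians stayed between -0.13 and 0.12. In control, the median response (log2 fold change) was 0.35 for the 15 single-exon members, 0.09 for the 19 with 2 exons and -0.29 for the 51 with at least 3. Of single-exon members, 14 of 15 lay above 0 and 1 was called higher; of those with at least 3 exons, 12 lay above 0, 11 were called lower and 0 higher. The medians were 0.26, -0.11 and -0.27 in SUGP1 E554K and 0.24, -0.21 and -0.34 in SUGP1 G603N. They were -0.11, -0.02 and -0.13 in PHF5A 2xTL and 0.12, 0.00 and -0.01 in SF3B1 T1080I. The median raw count was 248.3, 180.9 and 244.4 in the 3 classes. Other long noncoding RNA genes with a mean of at least 100 counts had medians of 0.08 (n = 210), -0.06 (n = 131) and -0.20 (n = 381) in control, the same order. Of these, 19 were called higher and 6 lower with 1 exon, 13 and 6 with 2, and 13 and 28 with at least 3. The classes were not compared by a test.

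**Figure D4:**
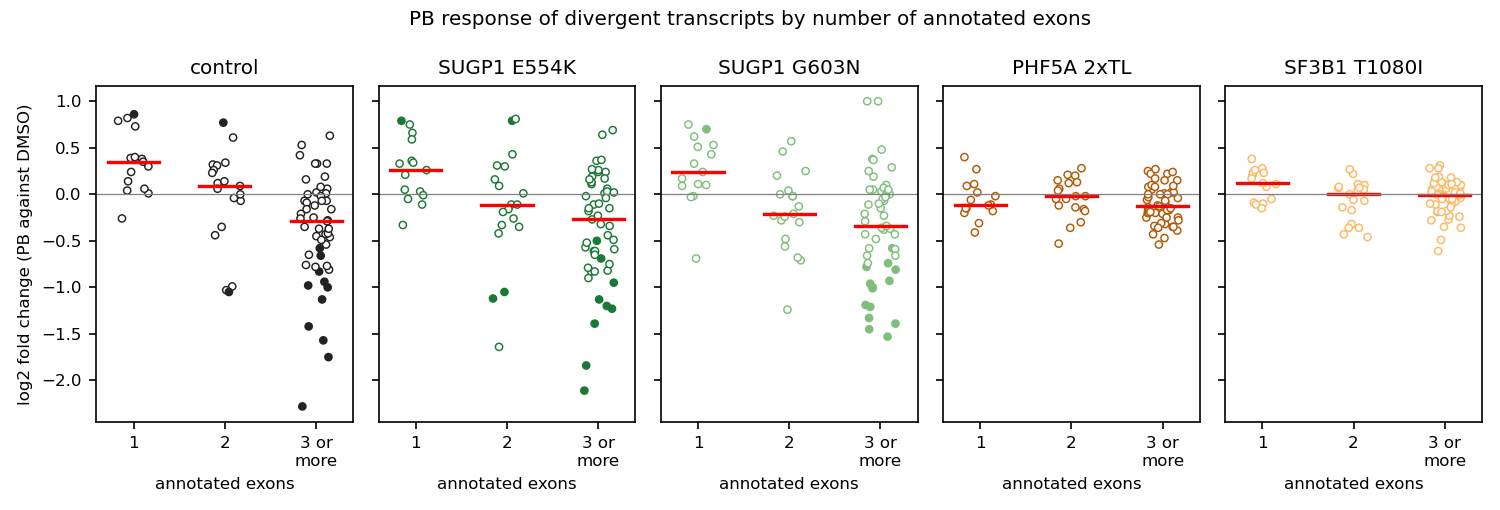
Log2 fold change with PB (vertical axis) of members by number of annotated exons (horizontal axis), 1 panel per genotype; red bars are medians and filled points passed an adjusted p of 0.05. In control the medians step from 0.35 to 0.09 to -0.29.

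Genes of the machinery that ends or degrades such transcripts were listed beside the members. Of 39 genes of nuclear RNA decay and early termination, 3 fell and 0 rose in control: ZC3H4, of the Restrictor complex (-0.76), ZFC3H1, of PAXT (-0.54), and NCBP3, a cap-binding protein (-0.44). In SUGP1 E554K NCBP3 and ZC3H4 fell while ZCCHC8, of NEXT (0.69), and NCBP2 (0.39) rose, and in SUGP1 G603N NCBP3 and ZC3H4 fell and ZCCHC8 rose. Of 23 genes of cleavage, polyadenylation and U1 snRNP, 4 fell in control, namely RBBP6 (-1.62), PAPOLG (-1.18), WDR33 (-0.60) and PCF11 (-0.49), and SNRPA, a U1 protein, rose (0.34). In SUGP1 E554K RBBP6 (-1.43), PAPOLG (-0.78) and WDR33 (-0.59) fell and SNRPA (0.38) rose. In SUGP1 G603N RBBP6 (-1.63), PAPOLG (-0.81) and WDR33 (-0.7) fell. PCF11 was not called in either SUGP1 genotype. In control, 4.3% of all tested genes and 8.51% of those with a mean of at least 100 counts were called. The medians of both lists in control were -0.01 and -0.07, against 0.01 over all tested genes. The responses of RBBP6 and PAPOLG differed from control in PHF5A 2xTL (1.36 and 1.07) and SF3B1 T1080I (1.31 and 1.17). No gene of either list was called with PB in PHF5A 2xTL or SF3B1 T1080I.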

How the data were processed

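RNA was measured in 30 libraries (poly(A) selection, CORALL kit, per the labels' protocols). The submitters' processing notes name UMI-tools, STAR and SAMtools 1.10 with hg38; for the counting program, its annotation and its strand setting, the entry is not given in these sources. The authors deposited estimated counts per gene, not normalized; 65.5% of values above 0 are not whole, and they were rounded. The deposited table also gives a gene length, used for levels per length.

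edgeR 4.0.16 (R 4.3.3; filterByExpr, TMM, quasi-likelihood F test, 10 group means) tested 31495 genes. SE is the fold change over the root of F and is approximate. Pairs were tested with limma 3.58.1 on voom-weighted log2 ratios (prior count 0.5). p-values were Benjamini-Hochberg adjusted over all genes or pairs. Both fits were tested on simulated data. DESeq2 1.42.0, DESeq2 size factors, no low-count filter, fits on only the groups compared, a replicate block and leaving out each library were alternatives.

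Members and lists were chosen with earlier results of these data known. Named members are those called in a contrast (at most 12 per direction by size with PB), the 3 of lowest p where under 3 were called, the 10 most abundant (1 of these members is not reported here) and the largest pair differences. Values by line of NDUFA6-DT, TBC1D22A-DT, CHKB-DT, TFIP11-DT, ISL1-DT, IRX2-DT and TNFRSF10A-DT were chosen after they were seen. Mutant libraries with 1 number share a clone, per the labels. Same-numbered deviations correlated by 0.405, 0.212 and 0.436 in control and 0.424 to 0.837 in the mutants over 11999 genes. The highest correlation with another number was -0.0685, 0.236 and -0.0779 in control and at most 0.35 in the mutants. Control replicate 2 thus correlated more with another number than with its own.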

Additional observations from a re-analysis of the deposited data

Results flagged for a closer look

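The tested difference in PB response from control passed for TMCC1-DT in PHF5A 2xTL (1.74 on the log2 scale) and in SF3B1 T1080I (1.67), and for NUP50-DT in SF3B1 T1080I (1.56). In each, the decrease seen in control was smaller in the mutant. Over the alternatives the adjusted p ranged from 5.02e-04 to 0.128 for TMCC1-DT in PHF5A 2xTL, from 8.10e-04 to 0.154 for TMCC1-DT in SF3B1 T1080I and from 4.35e-04 to 0.137 for NUP50-DT. With 3 libraries in every group, single outlying libraries were not tested for.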

How the results depend on the processing

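With the replicate number as a block over all libraries, PB called 23, 0, 0, 22 and 19 members in control, PHF5A 2xTL, SF3B1 T1080I, SUGP1 E554K and SUGP1 G603N, and no call was lost. Over all 31495 tested genes that fit called 2943, 1, 5, 3563 and 2913, against 1354, 1, 1, 1361 and 1284 without the block. With the block and only the groups compared, control had 27, SF3B1 T1080I 1, SUGP1 E554K 19 and SUGP1 G603N 7. Without the block and with only the groups compared, SUGP1 E554K had 2 and SUGP1 G603N 0. Response differences numbered 0 and 0 without the low-count filter, 6 and 5 with DESeq2, 2 and 6 with only the groups compared and 5 and 5 with the replicate block, in PHF5A 2xTL and SF3B1 T1080I. Over all tested genes the block called 494 and 525 response differences, against 82 and 90 without it. Calls over all genes are not given for the other alternatives. Leaving out 1 library at a time gave 9 to 14 calls in control, 8 to 14 in SUGP1 E554K, 9 to 16 in SUGP1 G603N, 0 to 1 for each of those response differences, and 10 to 13, 12 to 18 and 10 to 14 pair calls in control, SUGP1 E554K and SUGP1 G603N. Over single called members, 15 of 52 calls were lost without the low-count filter and 4 with DESeq2 size factors, 197 leave-one-out fits kept the call and 133 lost it, and no direction reversed. The cause of these shifts was not tested. Members average 2.12 to 41.6 CPM, which limits the precision of single values.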
